A study of Mus musculus with 6 samples.

Results

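Expression of 10 nuclear receptor genes was measured in the mouse colon: the bile acid, xenobiotic and lipid sensors *Nr1h4*, *Nr1i2*, *Nr1i3*, *Ppara*, *Ppard*, *Pparg* and *Vdr*, their shared partner *Rxra*, and the intestinal identity receptors *Hnf4a* and *Hnf4g*. They were chosen by gene symbol from the 18477 genes of the deposited table, and all 10 were present. Male C57BL/6 mice drank water with dextran sulfate sodium (DSS), which damages the lining of the colon, and received by gavage either PBS (DSS group, n = 3) or the gut commensal *Bacteroides vulgatus* (DSS+BV group, n = 3). Both groups therefore carried the injury, and colon of mice without DSS was not analysed here. The comparison addresses how gene expression in the injured colon differed when the bacterium was given. RNA of colon tissue was sequenced as 1 library per mouse, for 3 mice of each group. The study allocated mice to groups at random, and how the sequenced mice were chosen was not given in the sources used here. The p-values set the group difference against the spread between these mice.

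Nuclear receptors are transcription factors that small lipid-soluble molecules switch on or off. The bile acid receptor FXR (*Nr1h4*), the xenobiotic receptors PXR (*Nr1i2*) and CAR (*Nr1i3*), the fatty acid sensors of the PPAR family and the vitamin D receptor (*Vdr*) bind DNA as pairs with a retinoid X receptor, at spaced repeats of a short hexamer. The HNF4 proteins bind as pairs of themselves and keep genes of the absorptive intestinal epithelium active. In the intestine these receptors control bile acid handling, detoxification, fat oxidation and calcium uptake.

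The expected counts of the 6 libraries summed to between 15293276 and 17254343. Clustering over all tested genes did not follow the groups: DSS 1, DSS 3 and DSS+BV 1 lay together, apart from DSS 2, DSS+BV 2 and DSS+BV 3. The summed level of 5 posterior Hox genes, which mark the distal end of the colon, was lowest in DSS+BV 3 at 5.56 CPM (the count scaled to the library total). It was 58.8 CPM in DSS 2, 158 in DSS+BV 2, 185 in DSS 3, 333 in DSS+BV 1 and 336 in DSS 1. The 3 lowest sums thus lay in DSS 2, DSS+BV 2 and DSS+BV 3, the libraries that clustered together. The region of colon taken was not given in the sources used here, and its part in the clustering was not tested. The sum of 8 epithelial genes (*Epcam*, *Cdh1*, *Krt8*, *Krt18*, *Krt19*, *Cldn3*, *Cldn7* and *Tspan8*) ranged from 9006 to 9713 CPM in the DSS group and from 11143 to 14810 CPM in the DSS+BV group. Of 8 neutrophil genes, 6 were called lower with edgeR, against 0.0892% of all tested genes. For 7 the groups did not overlap, with DSS+BV lower, against 11.3% of all tested genes. The sum of the 8, most of it *Ly6g* in all libraries but DSS 2, ranged from 216 to 1027 and from 31.2 to 326 CPM. The fibroblast sum over 7 genes ranged from 3749 to 4097 and from 1341 to 1970 CPM. No gene of these 3 lists was at 0 in all 6 libraries. In bulk tissue, fewer cells of a type and less RNA per cell cannot be told apart.

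Of the 10 receptor genes, 9 had a log2 fold change above 0 in the DSS+BV group against the DSS group, and *Nr1i3* was the exception. None passed the test. *Hnf4a* and *Pparg* came closest, at 1.56 and 2.41 times the DSS level. All 10 genes passed the filter on low counts. Calls were made at an adjusted p under 0.05 with an absolute log2 fold change over 1 in the quasi-likelihood test of edgeR, adjusted by the Benjamini-Hochberg method over 14579 tested genes, and 0 receptor genes were called higher (0% of all tested genes) or lower (0.0892%). With DESeq2, 0 of the 10 were called as well (0.279% higher and 1.73% lower over all tested genes). At an unadjusted p under 0.05, 2 of the 10 were higher, against 3.4% of all tested genes, and 0 were lower, against 9.12%. The median log2 fold change over the 10 genes was 0.62, and over all tested genes it was -0.01. A fold change above 0 was found in 48.5% of all tested genes.

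**Figure D1:**
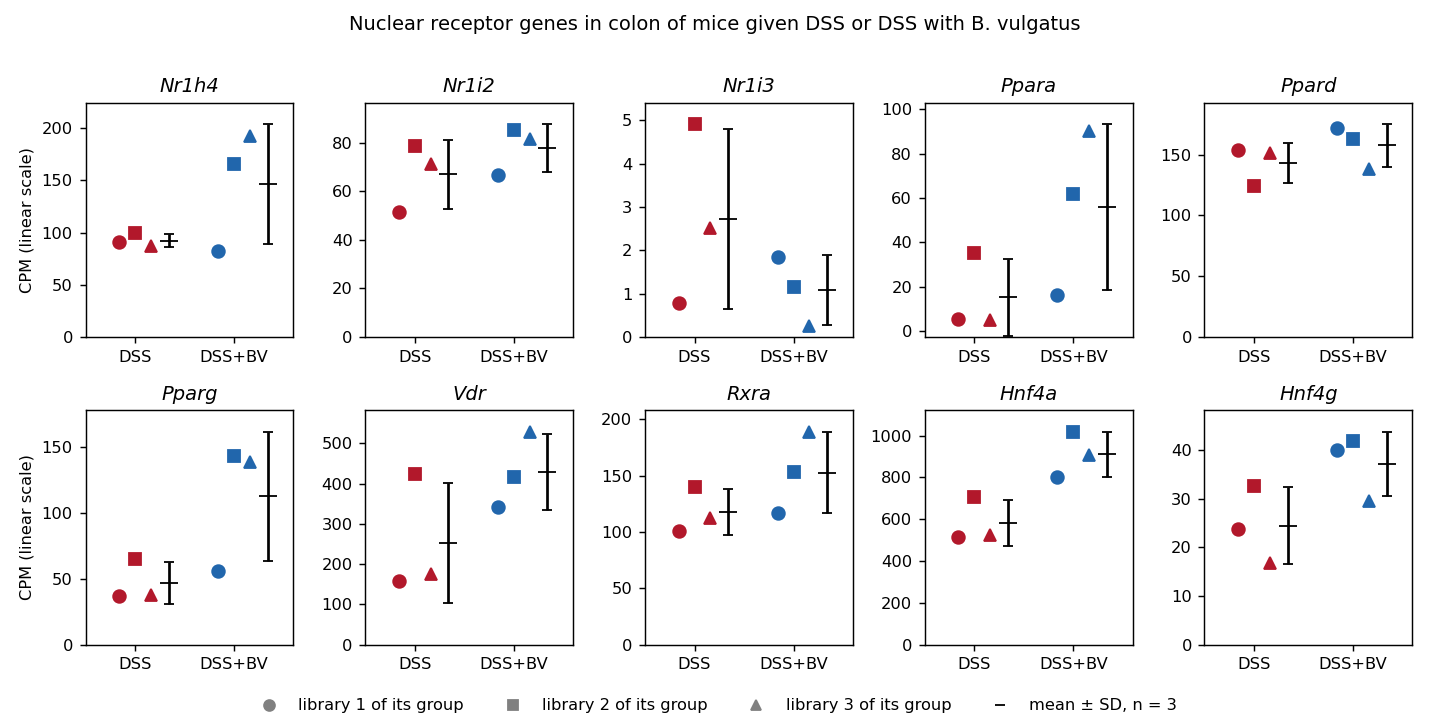
CPM of each receptor gene on a linear axis (vertical) in the DSS and DSS+BV groups, with 1 point per library, the marker shape giving the library number and the bar giving mean ± SD (n = 3). Only in the *Hnf4a* panel do all 3 DSS+BV points lie above all 3 DSS points, and the DSS 2 square lies beside DSS+BV values in the *Vdr* panel. The lower end of the DSS bar of *Ppara* passes below 0 because the SD of 17.4 is larger than the mean of 15.2.

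*Hnf4a* (Entrez gene 15378, chr2:163506811-163572907, GRCm38.p6, plus strand) encodes the main hepatocyte nuclear factor 4 of the colon and had the highest level of the 10 per kilobase of exon. It measured 514, 708 and 525 CPM in DSS 1, 2 and 3 and 803, 1019 and 908 CPM in DSS+BV 1, 2 and 3. Every DSS+BV mouse lay above every DSS mouse, a separation in this direction that held for 6.37% of all tested genes. The group levels were 582 ± 109 and 910 ± 108 CPM (SD, n = 3 each), with a log2 fold change of 0.64 (standard error [SE] 0.194, edgeR adjusted p = 0.329). With DESeq2 its adjusted p was 0.0597, and over all alternatives tried the adjusted p lay between 0.0597 and 1. The exact two-sided permutation test gave p = 0.1, which is the smallest that 3 against 3 mice allow.

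RefSeq lists 2 transcription starts for *Hnf4a*, and the counts, being per gene, do not show which was used. The bases before the second start are shown because *Hnf4a* was the only one of the 10 genes whose groups did not overlap. This stretch, chr2:163547095-163547154 on the plus strand of GRCm38.p6, holds none of the motifs searched, so it has no capitals.
Hnf4a, 60 bases before the second start: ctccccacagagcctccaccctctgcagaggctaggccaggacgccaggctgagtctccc

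*Hnf4g* (Entrez gene 30942, chr3:3508030-3659800, plus strand), the paralog expressed in absorptive enterocytes, had a lower level per kilobase. The DSS libraries held 23.8, 32.6 and 16.8 CPM and the DSS+BV libraries 40.0, 41.8 and 29.5 CPM. The groups overlapped through DSS 2, which exceeded DSS+BV 3. Its log2 fold change was 0.60, close in size to that of *Hnf4a* (SE 0.272, edgeR adjusted p = 0.425).

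*Pparg* (Entrez gene 19016, chr6:115360879-115490404, plus strand) encodes PPARγ, which in the colon is found mostly in surface epithelium. It measured 37.1, 64.8 and 37.97 CPM in the DSS libraries and 56.0, 143 and 138 CPM in the DSS+BV libraries. DSS+BV 2 and DSS+BV 3 held more than any DSS library, and DSS+BV 1 lay below DSS 2. The means were 46.6 ± 15.8 and 113 ± 49.1 CPM (SD, n = 3 each), and the log2 fold change was 1.27 (SE 0.404, edgeR adjusted p = 0.334, and between 0.0695 and 1 over all alternatives tried). RefSeq lists 3 starts for this gene. The hexamer AGGTCA, on either strand, stands in the promoters of 2 of them, which overlap annotated exons and are not printed, and in 16.3% of 32851 RefSeq promoters (250 bases before to 50 after a start). The bases before the start furthest downstream, at chr6:115422006-115422065, lie outside annotated exons and hold none of the motifs searched.
Pparg, 60 bases before the third start: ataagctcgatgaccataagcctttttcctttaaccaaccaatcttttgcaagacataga

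*Ppara* (Entrez gene 19013, chr15:85734910-85806851, plus strand), the receptor that switches on fatty acid oxidation, varied widely between the mice. It measured 5.39, 35.4 and 4.95 CPM in the DSS libraries and 16.1, 61.7 and 90.3 CPM in the DSS+BV libraries, an 18.3-fold span from lowest to highest. DSS 2 lay above DSS+BV 1, so the groups overlapped. The log2 fold change of 1.88, the largest of the 10, came with an SE of 0.938 (edgeR adjusted p = 0.463), and without DSS 2 it was 3.45 (edgeR adjusted p = 0.172, and between 0.172 and 1 over all alternatives). Its promoter is shown as that of the receptor with the largest difference. It is GC-rich, lies at chr15:85735716-85735775, and holds none of the motifs searched. The start it precedes, the only one listed, lies inside the gene span given above.
Ppara, 60 bases before the start: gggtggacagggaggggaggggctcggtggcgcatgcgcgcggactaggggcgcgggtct

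*Ppard* (Entrez gene 19015, chr17:28232754-28301469, plus strand), the widely expressed PPAR, was the steadiest of the 10. The DSS libraries held 154, 124 and 152 CPM and the DSS+BV libraries 172, 163 and 138 CPM. The highest was 1.38 times the lowest, the groups overlapped, and the log2 fold change was 0.14 (SE 0.151, edgeR adjusted p = 0.731).

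The PPAR genes therefore differed in their spread: *Ppara* and *Pparg* were highest in DSS+BV 2 and DSS+BV 3, and *Ppard* was highest in DSS+BV 1. Differences between the fold changes of the 3 genes were not tested.

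*Nr1h4* (Entrez gene 20186, chr10:89454234-89533645, minus strand) encodes FXR, the bile acid receptor. The DSS libraries lay close together at 90.8, 99.3 and 86.7 CPM, and the DSS+BV libraries spread over 82.3, 165 and 192 CPM. DSS+BV 1 lay below all 3 DSS libraries and the other two above them. The means were 92.3 ± 6.44 and 147 ± 57.3 CPM (SD, n = 3 each), with a log2 fold change of 0.67 (SE 0.302, edgeR adjusted p = 0.427). The RefSeq promoters include only 1 start of *Nr1h4*, which lies inside the gene span given above, and bases before the outer end were not searched. This promoter carries AGGTCA on the strand opposite to the gene. There the gene's own strand reads TGACCT, in capitals, 214 bases before that internal start (chr10:89506847-89506892, written along the minus strand, on which the gene lies).
Nr1h4, promoter stretch: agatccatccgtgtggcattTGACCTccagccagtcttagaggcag

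*Nr1i2* (Entrez gene 18171, chr16:38248349-38294849, minus strand) encodes PXR, the receptor for many drugs and for secondary bile acids. It measured 51.3, 78.8 and 71.2 CPM in the DSS libraries and 66.8, 85.2 and 81.7 CPM in the DSS+BV libraries. The groups overlapped, with a log2 fold change of 0.22 (SE 0.193, edgeR adjusted p = 0.671).

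*Nr1i3* (Entrez gene 12355, chr1:171213934-171218845, plus strand) encodes CAR, a receptor best known from liver, and was nearly absent. The counts behind it were 13, 79 and 43 in the DSS libraries and 28, 18 and 4 in the DSS+BV libraries, or 0.778, 4.91 and 2.50 CPM and 1.85, 1.15 and 0.253 CPM. DSS 1 lay below 2 of the DSS+BV libraries. The log2 fold change was -1.33 (SE 0.842, edgeR adjusted p = 0.550). Its exons overlap those of *Tomm40l* on the opposite strand by 2160 bases. *Tomm40l* held 25.9 to 37.4 CPM, and whether the counting used strand was not given in the sources used here, so reads of the 2 genes cannot be told apart with certainty.

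*Vdr* (Entrez gene 22337, chr15:97854427-97908296, minus strand), the vitamin D receptor, measured 159, 425 and 176 CPM in the DSS libraries and 341, 417 and 529 CPM in the DSS+BV libraries. DSS 2 exceeded DSS+BV 1 and DSS+BV 2, while DSS 1 and DSS 3 lay below every DSS+BV library. The means were 253 ± 149 and 429 ± 94.3 CPM (SD, n = 3 each), and the log2 fold change was 0.76 (SE 0.408, edgeR adjusted p = 0.494). Without DSS 2 the log2 fold change was 1.37 (edgeR adjusted p = 0.137, and between 0.137 and 1 over all alternatives).

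*Rxra* (Entrez gene 20181, chr2:27676445-27763319, plus strand), the pairing partner of the sensors, held 101, 140 and 112 CPM in the DSS libraries and 116, 153 and 189 CPM in the DSS+BV libraries. The groups overlapped through DSS 2, and the log2 fold change was 0.38 (SE 0.218, edgeR adjusted p = 0.519). Its paralog *Rxrb* (Entrez gene 20182) held 45.3, 40.0 and 41.2 CPM in the DSS libraries and 32.8, 36.95 and 40.6 CPM in the DSS+BV libraries, with a log2 fold change of -0.20 (SE 0.138, edgeR adjusted p = 0.588). *Rxrg* had 3 to 22 counts per library and was not tested. The *Rxra* promoter of the second listed start holds AGGTCA, in capitals, 48 bases before that start (chr2:27709232-27709291, plus strand).
Rxra, 60 bases before the second start: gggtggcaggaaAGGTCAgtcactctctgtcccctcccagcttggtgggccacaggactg

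RefSeq promoters were found for 9 of the 10 receptor genes, 13 in all, and 4 of the 13 held AGGTCA on either strand (in *Nr1h4*, *Rxra* and both of the *Pparg* starts named above). Pairs of such hexamers, built from AGGTCA or AGTTCA or GGGTCA or GGTTCA on both strands, as direct repeats with 1, 3 or 4 bases between them or as an inverted repeat with 1, were in none of the 13 and in 0.222%, 0.0396%, 0.0822% and 0.0365% of all promoters. A match is a description of letters, and these 300-base windows hold no enhancers.

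Compared between genes per kilobase of exon, over the 6 libraries, *Hnf4a* stood first at 171 CPM per kb and *Vdr* second at 78.1. *Nr1h4* (51.9), *Ppard* (45.9), *Pparg* (33.5), *Nr1i2* (28.4) and *Rxra* (26.5 CPM per kb) followed, then *Hnf4g* (11.7), *Ppara* (10.1) and *Nr1i3* (0.583 CPM per kb). *Hnf4a* exceeded *Vdr* in 6 of 6 libraries and *Vdr* exceeded *Nr1h4* in 5. *Nr1h4* exceeded *Ppard* in 3 of 6, *Ppard* exceeded *Pparg* in 4, *Pparg* exceeded *Nr1i2* in 2 and *Hnf4g* exceeded *Ppara* in 4, so these neighbours did not differ beyond their spread. *Nr1i2* exceeded *Rxra* in 5 of 6, *Rxra* exceeded *Hnf4g* in 6 and *Ppara* exceeded *Nr1i3* in 6. The same order resulted with the longest transcript as the length.

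Because several of these receptors are made mainly by epithelial cells, each was also set against the 8 epithelial genes of the same library. The mean log2 CPM of those 8 genes was 9.67 ± 0.0909 in the DSS group and 10.05 ± 0.123 with *B. vulgatus* (SD, n = 3 each), 0.38 apart with no overlap (exact two-sided permutation test, p = 0.1, the smallest possible). Relative to this level, 6 of the 10 receptor genes were higher in the DSS+BV group, and for none did the groups stay apart. The difference in log2 units was 0.27 for *Hnf4a*, 0.25 for *Hnf4g*, 0.20 for *Nr1h4* and 0.51 for *Vdr*. *Ppara* (1.79) and *Pparg* (0.82) had the largest differences above 0, and *Rxra* lay at -0.02. *Nr1i2* (-0.15), *Ppard* (-0.24) and *Nr1i3* (-1.60) were below 0. The exact permutation p was between 0.2 and 0.8 for the 10 genes.

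**Figure D2:**
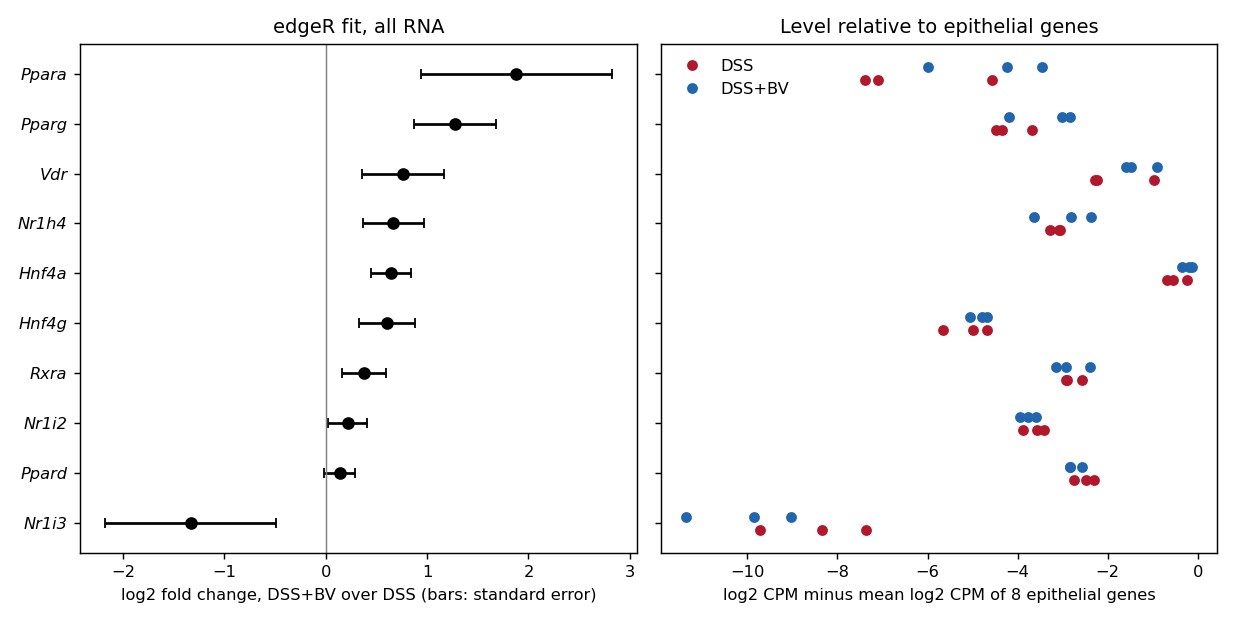
Left, log2 fold change of each receptor gene, DSS+BV over DSS, from the edgeR fit, with its SE. Right, log2 CPM of each gene minus the mean log2 CPM of 8 epithelial genes in the same library, 1 point per library, where the DSS (red) and DSS+BV (blue) points overlap for every gene.

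The counts depended on single libraries. Without DSS 2, 5 receptor genes were higher at an unadjusted p under 0.05 and 6 had groups that did not overlap. Leaving out DSS+BV 1 gave 5 and 6. Without DSS+BV 2 the count at that p was 0, and without DSS 1 or DSS 3 it was 1. Without DSS+BV 3, the library with the lowest posterior Hox sum, it was 2, with 3 genes whose groups did not overlap. With the level of the posterior Hox genes as a covariate, an alternative chosen after seeing the data, it was 3, and with the epithelial level as a covariate it was 0. The epithelial level did not overlap between the groups, so that fit could hardly separate it from the group and its count decides nothing. Calls stayed at 0 in all of these fits. The shares over all tested genes given above (3.4% at that p and 6.37% without overlap, higher) hold for 3 against 3 mice. Shares for the fits with 1 library left out are not given here, and groups separate more easily with 2 mice on 1 side. These counts therefore cannot be set against a share. Among the fold changes, that of *Nr1h4* was 0.43 and that of *Ppara* 1.36 without DSS+BV 3, where *Hnf4a* (0.65) and *Pparg* (1.10) changed little. Without DSS 2, *Pparg* was at 1.60, *Hnf4a* at 0.82, *Hnf4g* at 0.89 and *Nr1i3* at -0.60, and without DSS 1 *Nr1i2* was at 0.06, all in log2 units.

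The rest of the nuclear receptor family lay on both sides of 0. Of 49 family genes listed, 47 were in the table and 39 were tested, the 10 included, and 24 of the 39 had a log2 fold change above 0. At an unadjusted p under 0.05, 3 were higher (*Hnf4a*, *Pparg* and *Nr3c2*) and 1 was lower (*Nr2f2*), and 0 were called with edgeR or DESeq2. The mineralocorticoid receptor *Nr3c2*, which controls sodium uptake, held 74.3, 101 and 82.7 CPM in the DSS libraries and 116, 118 and 112 CPM in the DSS+BV libraries, without overlap (log2 fold change 0.42, SE 0.146, edgeR adjusted p = 0.356). *Nr2f2*, the COUP transcription factor of stromal and vascular cells, held 30.5, 26.4 and 36.6 against 24.9, 17.8 and 20.3 CPM (log2 fold change -0.57, SE 0.198, edgeR adjusted p = 0.356). Its groups did not overlap, as in 11.3% of all tested genes in this direction. The fibroblast and endothelial marker sums were lower in the same libraries, the endothelial sum over 6 genes from 303 to 383 CPM in the DSS group to 201 to 274 CPM in the DSS+BV group, and their part in its difference was not tested. The related *Nr2f1* was also lower in all 3 DSS+BV libraries (-0.76), and *Nr1d1* (-0.69), *Nr6a1* (0.74) and *Nr2f6* (0.27) had groups that overlapped.

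All 14 coregulator genes listed were tested, and 0 were at an unadjusted p under 0.05 in either direction. Their median log2 fold change was 0.17. The coactivators *Ppargc1a* and *Ppargc1b*, which drive oxidative metabolism with the PPARs, had log2 fold changes of 0.75 (SE 0.344, edgeR adjusted p = 0.434) and 0.48. The corepressor *Ncor1* lay at 0.31, and *Crebbp* and *Ep300* lay within 0.02 of 0.

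Genes that the receptors are known to control were listed by hand for each receptor. The lists do not separate genes that a receptor raises from genes that it lowers, so a list median is no measure of receptor activity. Across 10 lists of family, partner and target genes, 163 different genes were listed and 133 tested, of which 0 were called with edgeR and 4 with DESeq2 (*Fabp6*, *Slc30a10*, *S100g* and *Cd36*). At an unadjusted p under 0.05, 12 were higher and 6 lower, where the shares over all tested genes were 3.4% and 9.12%. The shares called with DESeq2 over all tested genes were 0.279% higher and 1.73% lower.

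**Figure D3:**
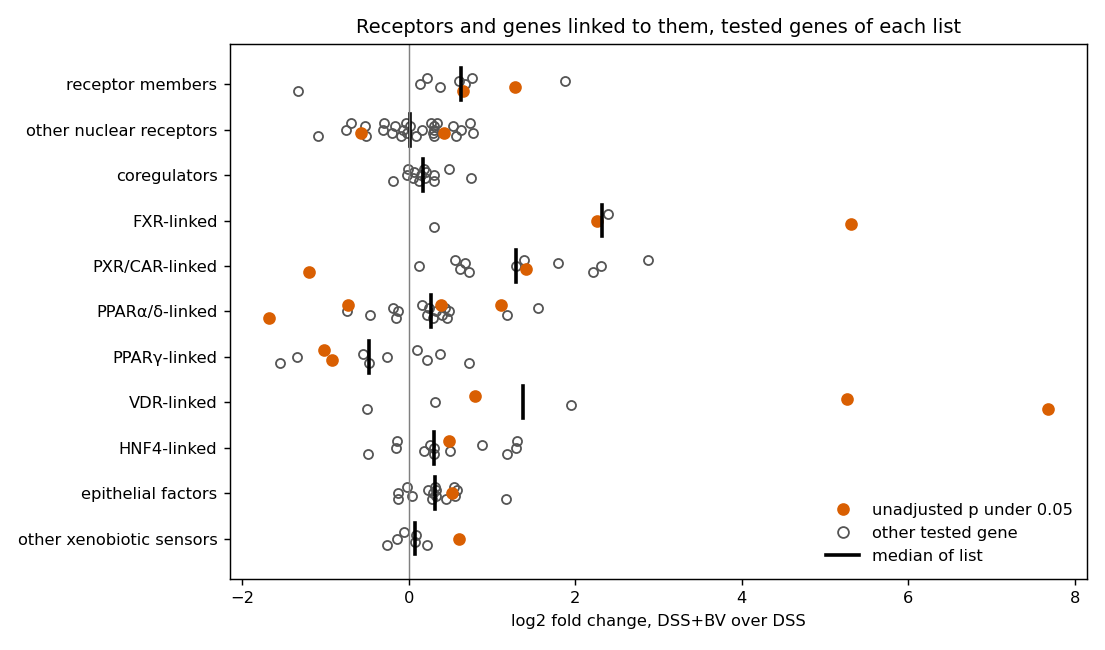
Log2 fold change (horizontal, DSS+BV over DSS) of every tested gene of each list, 1 point per gene, with filled points at an unadjusted edgeR p under 0.05 and a bar at the median of the list. The medians of the FXR-linked (2.32, 4 genes tested), PXR and CAR-linked (1.28, 13 genes) and VDR-linked (1.37, 6 genes) lists lie above that of the receptors themselves (0.62, 10 genes). The median of the PPARγ-linked list (-0.48, 11 genes) lies below 0.

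Among the bile acid genes linked to FXR, 4 of 10 were tested, and 2 of these were higher at an unadjusted p under 0.05. *Slc51a*, one chain of the transporter that passes bile acids to the blood, held 0.12, 7.34 and 0.699 CPM in the DSS libraries and 0.066, 105 and 218 CPM in the DSS+BV libraries. The high values lay in DSS+BV 2 and DSS+BV 3, while DSS+BV 1 had 1 count (log2 fold change 5.31, SE 2.07, edgeR adjusted p = 0.385). *Slc10a2*, which takes bile acids up from the lumen, held 37.5, 7.34 and 11.1 CPM and then 5.80, 99.6 and 188 CPM, again with DSS+BV 1 lowest (log2 fold change 2.39, SE 1.15, edgeR adjusted p = 0.450). *Fabp6*, the bile acid carrier of the ileum, held 0.539, 0.622 and 1.22 CPM and then 7.26, 1.91 and 2.34 CPM, without overlap (log2 fold change 2.26, SE 0.650, edgeR adjusted p = 0.318, and 0.0419 with DESeq2). Without DSS+BV 3 the log2 fold changes were 4.28 for *Slc51a* and 1.503 for *Slc10a2*. The other chain of the *Slc51a* transporter, *Slc51b*, named here after its values were seen, did not share the large difference. It held 4.73, 8.21 and 10.5 CPM and then 5.94, 9.87 and 13.2 CPM (log2 fold change 0.31, SE 0.401, edgeR adjusted p = 0.777). The direct FXR targets *Fgf15*, with 0 or 1 count per library, and *Nr0b2*, with 0 to 2, were not tested. The sum of 6 small intestine and liver genes, to which *Fabp6* belongs, was 0.778 to 2.86 CPM in the DSS group and 8.57 to 33.3 CPM in the DSS+BV group. *Fabp6* itself was 7.26 of the 8.57 CPM in DSS+BV 1, so that sum mostly repeats this gene. It was 1.91 of 10.8 CPM in DSS+BV 2 and 2.34 of 33.3 CPM in DSS+BV 3. The part of small intestine or liver transcripts in these differences was not tested.

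**Figure D4:**
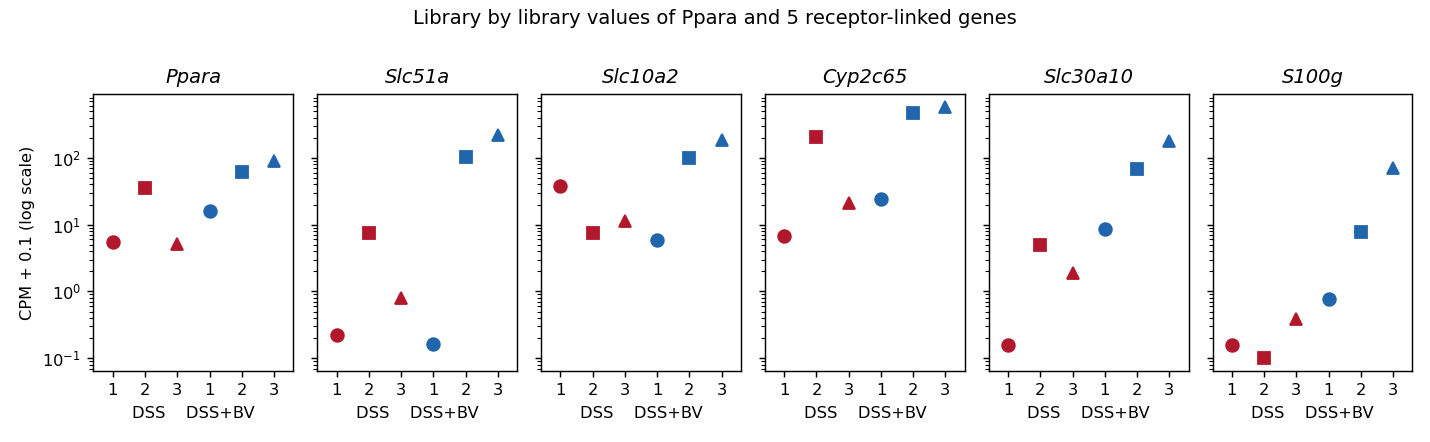
CPM + 0.1 on a log axis (vertical) of *Ppara* and 5 genes of the receptor-linked lists in each of the 6 libraries, DSS in red and DSS+BV in blue. DSS+BV 2 and DSS+BV 3 hold the highest values in every panel, and DSS+BV 1 lies within the DSS range for *Ppara* and *Cyp2c65*, below it for *Slc51a* and *Slc10a2* and above it for *Slc30a10* and *S100g*.

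Detoxification genes linked to PXR and CAR had log2 fold changes above 0 in 12 of the 13 tested, with 1 higher and 1 lower at an unadjusted p under 0.05. The glutathione transferase *Gsta1* held 9.04, 25.6 and 9.61 CPM in the DSS libraries and 22.95, 46.6 and 47.9 CPM in the DSS+BV libraries (log2 fold change 1.41, SE 0.490, edgeR adjusted p = 0.356). The drug efflux pump *Abcb1b* lay the other way, at 5.51, 4.54 and 7.75 CPM against 4.22, 2.36 and 1.14 CPM, without overlap (log2 fold change -1.20, edgeR adjusted p = 0.396). *Cyp3a13* (0.73) and the organic anion pump *Abcc3* (0.68) followed. The classical reporter genes of the 2 receptors, *Cyp3a11* and *Cyp2b10*, had no count in the DSS libraries or in DSS+BV 1, 3 and 1 counts in DSS+BV 2, and 16 and 9 counts in DSS+BV 3. *Gsta1*, *Abcb1b* and *Cyp3a13* had fractional expected counts, a sign of reads shared with other genes, so their levels are less certain.

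*Cyp2c65*, a colonic P450 of the same list named here after its values were seen, showed how far the libraries of 1 group lay apart. It held 6.59, 203 and 21.02 CPM in the DSS libraries and 24.4, 463 and 580 CPM in the DSS+BV libraries (log2 fold change 2.21, SE 1.46, edgeR adjusted p = 0.567). It too had fractional counts. Its promoter is shown because it holds CAAAGTCCA, in capitals, a motif of HNF4, 116 bases before the start (chr19:39060870-39060918, plus strand, GRCm38.p6). The motif, on either strand, was in 0.475% of all RefSeq promoters and, in the lists, also in *Cyp3a11*, *Cyp8b1* and *Trpv6*, the last shown for comparison from chr6:41636526-41636574, on the minus strand, where the motif stands 149 bases before the start.
Cyp2c65, promoter stretch: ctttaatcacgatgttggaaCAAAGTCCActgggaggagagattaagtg
Trpv6, promoter stretch: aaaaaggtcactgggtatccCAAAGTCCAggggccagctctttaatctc

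Calcium and metal transport genes linked to the vitamin D receptor lay mostly above 0, with a median of 1.37 (log2 fold change). Of 6 tested, 3 were higher at an unadjusted p under 0.05 and 0 lower. Among these 3, *S100g* passed the filter on low counts only through the DSS+BV libraries, where it was high. The count and the median thus depend in part on that filter. The calcium-binding protein *S100g* had 1, 0 and 5 counts in the DSS libraries and 10, 121 and 1109 counts in the DSS+BV libraries, or 0.66, 7.71 and 70.1 CPM, and did not overlap (edgeR adjusted p = 0.283, and 0.00529 with DESeq2). The manganese exporter *Slc30a10* held 0.0599, 4.79 and 1.81 CPM and then 8.44, 68.6 and 178 CPM, also without overlap (log2 fold change 5.26, SE 1.41, edgeR adjusted p = 0.296, and 0.0333 with DESeq2). Without DSS+BV 3 the log2 fold change of *Slc30a10* was 4.12, and that of *S100g* was 5.05 in place of 7.68, a fitted size that depends on the prior count because the DSS libraries held almost no reads of it. The calcium pump *Atp2b1* held 200, 169 and 244 CPM and then 260, 439 and 362 CPM (log2 fold change 0.79, SE 0.238, edgeR adjusted p = 0.329). The calcium channel *Trpv6*, in contrast, held 5.33, 0.311 and 9.72 CPM and then 8.44, 2.42 and 0 CPM, with groups that overlapped (log2 fold change -0.50, SE 1.47). *Cyp24a1* had no row under that symbol in the deposited table, so it could not be analysed here.

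Fat oxidation genes linked to PPARα and PPARδ were split. Of 20 tested, 2 were higher and 2 lower at an unadjusted p under 0.05, and the median log2 fold change was 0.26. The acyl-CoA synthetase *Acsl1* held 28.9, 27.2 and 31.4 CPM in the DSS libraries and 39.5, 38.3 and 36.7 CPM in the DSS+BV libraries, without overlap (log2 fold change 0.39, SE 0.128, edgeR adjusted p = 0.345). The peroxisomal enzyme *Ehhadh* (1.11, SE 0.424, edgeR adjusted p = 0.381) and *Etfdh* (0.43) were also above 0. *Angptl4*, an inhibitor of lipoprotein lipase, lay at 35.1, 34.5 and 61.0 CPM against 3.43, 12.2 and 25.04 CPM, without overlap (log2 fold change -1.68, SE 0.652, edgeR adjusted p = 0.384). The lipid droplet coat *Plin2* (-0.73, SE 0.304, edgeR adjusted p = 0.398) and *Acadl* (-0.47) lay on the same side. The textbook targets *Cpt1a* (0.21, SE 0.236) and *Pdk4* (-0.13, SE 0.838) had standard errors larger than their fold changes.

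Lipid storage genes linked to PPARγ had a median log2 fold change of -0.48 over 11 tested, the opposite sign to *Pparg* itself, with 2 lower and 0 higher at an unadjusted p under 0.05. The fatty acid transporter *Cd36* held 39.5, 42.7 and 69.9 CPM in the DSS libraries and 30.01, 24.7 and 20.1 CPM in the DSS+BV libraries (log2 fold change -1.02, SE 0.270, edgeR adjusted p = 0.287, and 0.0471 with DESeq2). The adipocyte fatty acid binding protein *Fabp4* held 44.8, 55.5 and 102 CPM and then 39.8, 43.3 and 23.1 CPM (log2 fold change -0.93, SE 0.370, edgeR adjusted p = 0.389). The groups did not overlap for either gene. *Plin4* lay at -0.56, *Adipoq* at -1.35 (SE 1.19), and *Pck1* (0.72), *Pnpla2* (0.22) and *Cebpa* (0.10) above 0. Both *Cd36* and *Fabp4* are also made by endothelial cells and adipocytes. The sum of 6 adipocyte genes, *Fabp4* and *Adipoq* among them, was 49.0 to 131 CPM in the DSS group and 41.1 to 64.7 CPM in the DSS+BV group. *Fabp4* itself was most of this sum in every library, so the sum is no separate measure of adipocytes for that gene. The endothelial sum was lower as given above. The part of either cell type in the difference was not tested.

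Genes linked to the HNF4 receptors had small differences for the most part. Of 13 tested, 10 had a log2 fold change above 0, 1 was higher at an unadjusted p under 0.05 and 0 were lower, with a median of 0.31. The microvillus protein *Vil1* held 680, 714 and 747 CPM in the DSS libraries and 890, 1075 and 1017 CPM in the DSS+BV libraries, without overlap (log2 fold change 0.48, SE 0.153, edgeR adjusted p = 0.336). The cadherin *Cdh17* (0.31) lay above 0, and *Apob* (-0.16), *Mep1b* (-0.49) and *Mttp* (-0.15) below it with groups that overlapped. The 17 epithelial marker genes, *Vil1* among them, all had a log2 fold change above 0, with 7 at an unadjusted p under 0.05. The part of the epithelial share in these values was not tested, as the covariate fit above could hardly separate the epithelial level from the group.

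Other epithelial transcription factors had a median log2 fold change of 0.32 over 16 tested, with 1 higher and 0 lower at an unadjusted p under 0.05. The pioneer factor *Foxa1* held 51.9, 78.8 and 46.1 CPM in the DSS libraries and 81.3, 85.9 and 85.0 CPM in the DSS+BV libraries (log2 fold change 0.51, SE 0.212, edgeR adjusted p = 0.397). *Foxa3* (0.56) and the caudal factors *Cdx1* (0.45) and *Cdx2* (1.16, SE 0.781) lay above 0, and *Foxa2*, *Prox1* and *Gata6* within 0.14 of it. *Cdx2* held 42.2, 176 and 39.9 CPM and then 60.5, 192 and 327 CPM, with DSS 2 again among the DSS+BV values, and its log2 fold change was 0.55 without DSS+BV 3 and 2.24 without DSS 2.

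Of 7 xenobiotic sensors outside the nuclear receptor family, *Nfe2l2*, which encodes the oxidative stress regulator NRF2, was higher at an unadjusted p under 0.05, at 182, 235 and 172 CPM in the DSS libraries and 229, 336 and 327 CPM in the DSS+BV libraries (log2 fold change 0.60, SE 0.208, edgeR adjusted p = 0.356). The aryl hydrocarbon receptor *Ahr* lay at -0.15 (SE 0.168), its repressor *Ahrr* at 0.07 and its partner *Arnt* at -0.06. *Mafg* (0.21), *Keap1* (0.08) and *Maff* (-0.26) completed the list, whose median was 0.07.

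For the 5 receptor genes whose log2 CPM had an SD over 0.5 across the 6 libraries, the tested genes with the most similar pattern were found by the root mean square difference of centred log2 CPM over the 6 libraries. For *Pparg* these were *Papss2* (0.139), *Gm3776* (0.152) and *Paqr5* (0.176). For *Vdr* they were *Cipc* (0.115), *Slc2a10* (0.116) and *Tlcd4* (0.117), and for *Nr1h4* *Gfod2* (0.0914), *Dgkq* (0.106) and *Slc52a2* (0.125). *Ppara* was followed most closely by *Ugt1a6a* (0.196), *Ms4a18* (0.250) and *Gpt* (0.349), and *Nr1i3*, whose low counts leave a wide error, less closely by *Cpa3* (0.397) and *Nxpe4* (0.398). With 6 libraries that fall into clusters, these are descriptions of these libraries.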

How the data were processed

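Colon RNA of 6 mice was analysed, with groups and library numbers taken from the titles in the labels. The authors deposited expected counts per gene from RSEM, not scaled between libraries. The submitters' processing notes name HISAT2 2.1.0, Bowtie2 2.2.5, RSEM 1.2.8 and GRCm38.p6. Expected counts were rounded to whole numbers, and genes were kept with filterByExpr of edgeR (minimum count 10, minimum total 15), which left 14579 of 18477. CPM was computed from TMM-scaled library totals. DSS+BV was compared with DSS by edgeR 4.0.16 (glmQLFit, glmQLFTest) under R 4.3.3, and p-values were adjusted by the Benjamini-Hochberg method over all genes tested. The study's tool was DESeq2, run here as an alternative (1.42.0). Other alternatives were scaling by RLE or upper quartiles, other filters, a replicate block, covariates and leaving out each library. The code was checked on simulated data.

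The receptors and gene lists were chosen with earlier results of these data known, and the lists were written by hand. Besides the 10 receptors, named genes were the first 2 of each list and up to 3 per direction with the smallest p among those with a mean of at least 1 CPM, *Rxrb* and *Rxrg*, and the 3 most similar to each variable receptor (log2 SD over 0.5). Some genes that the rule names are not reported here. Gene lengths and exon overlaps came from GENCODE M21, and positions and promoters from RefSeq, both on GRCm38.p6.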

Additional observations from a re-analysis of the deposited data

How the results depend on the processing

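Over the 14 alternatives, no receptor gene was called, and 139 of 140 receptor fold changes kept their direction and their side of the threshold. The exception was *Nr1i2*, at -0.37 with the epithelial level as covariate. That level did not overlap between the groups, so values and counts from this fit can hardly be separated from the group difference. The number of receptor genes higher at an unadjusted p under 0.05 was 2, and 5 with DESeq2, 0 with the epithelial covariate and between 0 (without DSS+BV 2) and 5 (without DSS 2 or DSS+BV 1) with 1 library left out. The number whose groups did not overlap ranged from 1 to 6 (higher) and from 0 to 1 (lower). In the receptor-linked lists, calls were 0, and 4 with DESeq2. Genes at an unadjusted p under 0.05 in these lists numbered 12 higher, and 19 with DESeq2, 1 with the epithelial covariate and between 3 (without DSS+BV 2) and 44 (without DSS 2) with 1 library left out, and 6 lower, between 1 (without DSS 3) and 6 with 1 library left out, 3 without DSS+BV 2, and 8 at most in any alternative (upper-quartile scaling). The shares over all tested genes with 1 library left out are not given here, so those counts cannot be set against a share. The causes were not tested. Values relative to the epithelial genes were scored as the same in all 90 alternative values, but the direction of some rested on single libraries. For *Rxra* the DSS+BV libraries lay at -3.14, -2.93 and -2.39, around the DSS mean of -2.80. For *Nr1h4* they lay at -3.64, -2.82 and -2.37, around the DSS mean of -3.14.

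The labels do not state that mice with the same library number were paired, and the main fit treated them as unpaired. The correlations of deviations between same-numbered libraries were 0.267, 0.255 and -0.296. Between differently numbered libraries they lay between -0.572 and 0.484, so these few values cannot decide whether the numbers pair the mice. With the replicate number as a block, 5 receptor genes and 26 list genes were higher at an unadjusted p under 0.05, 0 were called, and *Apob* turned to 0.12.

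Of 797 alternative values of the other named genes, 42 changed sign. With DESeq2, *Crebbp*, *Ep300* and *Gata6* were at 0.0020, 0.0069 and 0.0017, and with every gene that had a count at 0.010, 0.016 and 0.00877. With the epithelial covariate, *Crebbp* was at 0.17, *Ep300* at 0.049, *Cdh17* at -0.18, *Mttp* at 1.49 and *Foxa2* at 0.32. With the posterior Hox covariate, chosen after seeing the data, *Ep300* was at 0.00604. With 1 library left out, the ranges were -0.11 to 0.066 for *Crebbp*, -0.13 to 0.085 for *Ep300*, -0.58 to 0.17 for *Foxa2*, -0.74 to 0.39 for *Pdk4*, -0.64 to 0.19 for *Apob*, -0.90 to 0.13 for *Mep1b*, -0.093 to 0.13 for *Gata6*, -0.29 to 0.31 for *Ahrr*, -2.07 to 0.35 for *Trpv6*, -1.04 to 0.18 for *Mttp*, -0.27 to 0.021 for *Prox1*, -0.51 to 0.040 for *Maff*, -0.061 to 0.24 for *Cebpa* and -0.039 to 0.19 for *Keap1*.

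Depth differed by 1.13 times between libraries. For genes with few counts, such as *Cyp3a11* and *Fgf15*, a difference was not detectable at this depth. With 3 mice per group an exact test of 1 gene cannot go below p = 0.1.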

Other observations

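Some list genes with few reads had most of them in DSS+BV 3. They are given here as counts and were chosen after their values were seen, and all but *Sis* failed the low-count filter of the edgeR fit. The apolipoproteins *Apoa1* and *Apoa4*, which enterocytes of the small intestine and liver cells make for lipoproteins, had 126 and 145 counts in DSS+BV 3 and at most 7 and 2 counts in the other libraries. The fatty acid binding protein *Fabp1* had 33 counts in DSS+BV 3 and at most 2 elsewhere (DESeq2 adjusted p = 0.391). *Cyp3a25*, a P450 of the PXR list, had 45 counts in DSS+BV 3, 10 in DSS+BV 2 and 0 in the other 4 libraries (DESeq2 log2 fold change 6.74, adjusted p = 0.0760). DSS+BV 3 was also the library with the lowest posterior Hox sum, and the sucrase gene *Sis*, with 0, 31 and 2 counts in the DSS libraries and 3, 130 and 309 in the DSS+BV libraries, was highest there.

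The P450 *Cyp2c55*, also chosen after its values were seen, showed the same grouping of libraries at high levels. It held 139, 13393 and 1104 counts in the DSS libraries and 2017, 42601 and 59722 in the DSS+BV libraries (log2 fold change 2.87, standard error 1.72, edgeR adjusted p = 0.534). DSS 2 lay above DSS+BV 1 and the other DSS libraries.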
